A study of Homo sapiens with 6 samples.

Results

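The AP-1 and EGR immediate early factors were followed here through 10 listed genes, FOS, FOSB, FOSL1 and FOSL2 of the FOS family, JUN, JUNB and JUND of the JUN family, EGR1 and EGR2 of the EGR family, and IER3. All 10 were among the 28181 genes listed by Ensembl identifier in each of the 6 libraries, and all 10 passed the filter of a mean of at least 1 that left 23040 genes for testing. The cells were UE7T-9, a line of human mesenchymal stem cells from bone marrow that was immortalized with telomerase reverse transcriptase and the human papillomavirus E7 gene. UE7T-9 SHC4 carried the coding region of SHC4 in a lentiviral vector with a CMV promoter and puromycin selection, and UE7T-9 Cont carried GFP in the same vector according to the paper, whereas the sample labels give the controls as nontarget and wild type. Both groups shared the line, its immortalizing genes and the growth medium. RNA was sequenced from 3 libraries per group (the controls, called Cont replicates, and the SHC4 libraries, called SHC4 replicates), and the question was how gene expression differed with SHC4, an adaptor protein that couples activated receptors to Ras signaling. The labels call the libraries biological replicates and the series text speaks of established clones, but the sources used here do not say whether they were separate infections, clones or cultures, so p-values measure only the spread between these libraries.

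AP-1 is a family of dimers. FOS proteins pair with JUN proteins, JUN proteins also pair with each other, and the dimers bind the TPA response element of target genes. EGR proteins are zinc finger factors that bind GC-rich sites. Most of these genes are immediate early genes, whose transcripts appear within minutes of serum, growth factor or mechanical stimulation without new protein synthesis and are then lost quickly, while JUND and FOSL2 are more steadily transcribed. In cultured stromal cells the family is known for its response to growth factor signaling through ERK and for the control of proteases, cytokines and adhesion receptors.

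The promoters of FOS, FOSB, EGR1 and EGR2 are shown first because the transcripts of these genes varied most among libraries. Promoter sequences were taken from RefSeq on GRCh38.p14 and cover the 250 bases before the annotated start, read 5′ to 3′ along the strand of the gene. An entry was matched for 8 of the 10 genes, with 10 windows in all. Capitals mark a CArG box (bound by serum response factor), a CRE hexamer (TGACGT, or ACGTCA on the other strand, bound by CREB and ATF factors) or a TATA box (TATAAA, or TTTATA on the other strand). The FOS window lies at chr14:75278578-75278827 on the plus strand, the FOSB window at chr19:45467746-45467995 on the plus strand, the EGR1 window at chr5:138465229-138465478 on the plus strand, and the EGR2 window shown, the third of 3, at chr10:62816367-62816616 on the minus strand. In the GENCODE 29 annotation the end of the FOS window overlaps the first exon of a longer transcript, the EGR2 window is intronic in longer transcripts, and the EGR1 window lies outside the gene.
FOS: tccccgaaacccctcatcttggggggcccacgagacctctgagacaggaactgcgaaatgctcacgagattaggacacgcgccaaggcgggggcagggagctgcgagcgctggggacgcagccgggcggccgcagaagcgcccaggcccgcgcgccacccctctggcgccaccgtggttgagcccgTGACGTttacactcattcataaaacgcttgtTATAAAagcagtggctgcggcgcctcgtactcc
FOSB: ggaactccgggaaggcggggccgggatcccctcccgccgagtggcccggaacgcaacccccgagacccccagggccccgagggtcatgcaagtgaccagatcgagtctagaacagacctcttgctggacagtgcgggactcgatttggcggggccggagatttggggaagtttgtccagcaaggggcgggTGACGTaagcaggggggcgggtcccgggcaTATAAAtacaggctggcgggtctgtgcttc
EGR1: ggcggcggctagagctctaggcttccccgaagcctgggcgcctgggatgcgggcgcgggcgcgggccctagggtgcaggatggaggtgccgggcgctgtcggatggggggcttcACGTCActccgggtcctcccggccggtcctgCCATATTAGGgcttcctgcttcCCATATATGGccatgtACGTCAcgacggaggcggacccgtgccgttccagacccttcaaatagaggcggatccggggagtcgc
EGR2: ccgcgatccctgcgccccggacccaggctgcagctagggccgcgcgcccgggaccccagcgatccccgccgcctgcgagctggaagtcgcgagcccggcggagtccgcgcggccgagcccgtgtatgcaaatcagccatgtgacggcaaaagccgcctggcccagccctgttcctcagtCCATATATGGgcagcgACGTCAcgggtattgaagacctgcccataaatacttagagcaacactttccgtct
FOS and FOSB had the same arrangement in this window. The CRE hexamer lay 64 to 59 bases before the start in FOS and 60 to 55 bases before it in FOSB, followed by a TATA box at 33 to 28 and 30 to 25 bases. EGR1 held 2 CArG boxes, at 105 to 96 and 83 to 74 bases before the start, each with a CRE hexamer nearby. EGR2 held 1 CArG box at 71 to 62 bases and a CRE hexamer at 55 to 50 bases, whereas its other 2 windows held none of the motifs searched. Among all 35116 promoters of the table, 1.16% held a CArG box, 7.10% a CRE hexamer and 10.7% a TATA box by the same search.

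The other members with a promoter entry were less alike. FOSL2 held a CRE hexamer at 66 to 61 bases before its start and no TATA box, and JUNB held a TATA box at 31 to 26 bases and no CRE hexamer. JUND held the full palindrome TGACGTCA at 200 to 193 bases, which 1.65% of all promoters held and which contains the hexamer on both strands, and a further hexamer at 87 to 82 bases. JUN held none of the motifs searched. In the GENCODE annotation the JUN window (58784048 to 58784297) lies wholly within the gene (58780788 to 58784327), all of which is exon. The FOSL2 window (28392608 to 28392857) also lies within its gene, which begins at 28392448. Both windows precede the RefSeq start but are not upstream of the gene by the GENCODE annotation. Neither the AP-1 motif (TGACTCA, or TGAGTCA on the other strand, in 4.20% of all promoters) nor the EGR motif (GCGTGGGCG or GCGGGGGCG on either strand, in 5.37%) was found in any of the 10 windows. A match is a match of letters and was not tied to binding in these cells, and a window without a match says only that these letters are not in it. No entry was used for FOSL1 and IER3.

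Recovered depth was 18144993 to 27721397 reads per library, and the smallest totals were those of Cont replicate 2 and SHC4 replicate 3 (20002676 reads). The value given for each gene is the normalized count, the authors' read count divided by 1 size factor per library (0.849 to 1.20), and 3 reads corresponded to 2.50 to 3.53. SHC4 itself had a normalized count of 56.5, 157 and 130 in Cont replicates 1, 2 and 3 and between 119166 and 155006 in the SHC4 libraries, so the labels matched the transgene. Reads of chromosomal and vector SHC4 were not separated. Cont replicate 1 stood apart from its group: by the mean chi-square per gene between libraries it was nearer to SHC4 replicate 1 (33.9) than to Cont replicate 2 (94.96) or Cont replicate 3 (147), which differed from each other by 27.9. SHC4 replicate 1 likewise was nearer to Cont replicate 1 than to SHC4 replicate 2 (83.05) or SHC4 replicate 3 (69.7). SHC4 replicates 2 and 3 differed from each other by 14.5. What replicate 1 of the groups had in common was not tested. The 6 mesenchymal stromal markers examined were present in each library, with a summed normalized count of 119342 to 376270 (rounded to whole numbers). Markers of other cell types were lower in sum. The sum was 218 to 407 for 5 hematopoietic markers (PTPRC at most 6.82, HLA-DRA at most 262). It was 49.2 to 96.7 for 4 endothelial markers (CDH5 at most 1.18, VWF at most 65.3) and 6.66 to 32.5 for 3 epithelial markers. Libraries of whole cultures cannot separate fewer cells expressing a gene from less RNA per cell.

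None of the 10 genes was called in limma, where a call needed a Benjamini-Hochberg adjusted p below 0.05 together with a difference of more than 1 on the log2 scale between the SHC4 libraries and the controls. Across all 23040 genes 0.0521% were called higher and 0.00868% lower by this rule. The point estimate was above 0 for 7 of the 10 genes and below 0 for 3, with a median log2 fold change of 0.13 against -0.0040 over all genes tested, although JUN and EGR2 turned below 0 when libraries were scaled by their totals, which moved the median of all genes to -0.10. An unadjusted p below 0.05 was reached by 2 of the 10 genes, JUND and IER3, beside 14.4% of all genes. DESeq2 on the recovered reads called 1 of the 10, IER3, where it called 1.15% of 16153 genes lower and 1.05% higher, and edgeR called 0 of the 10 beside 0.0631% of 15859 genes. IER3 was also the 1 gene of the 10 whose libraries did not overlap between the groups, beside 19.3% of all genes (10.2% with SHC4 libraries lower and 9.13% with them higher).

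**Figure D1:**
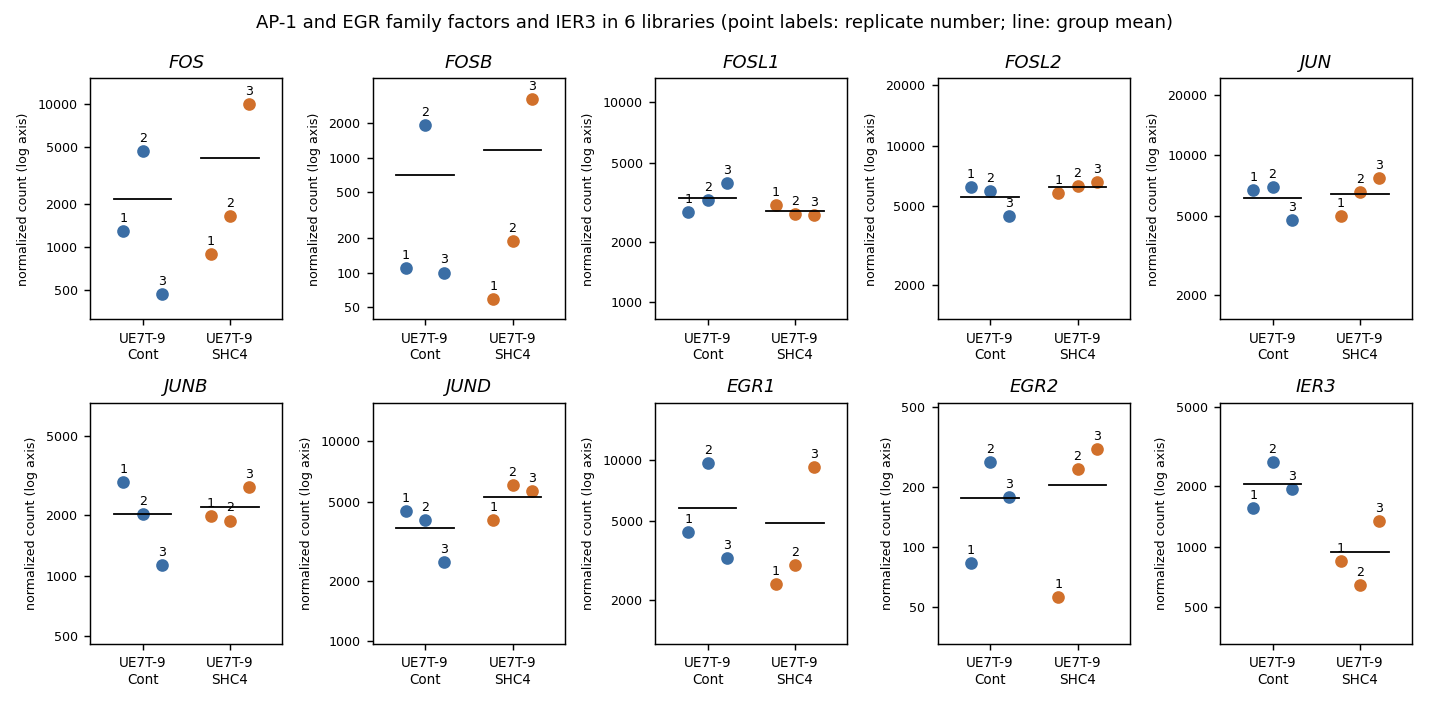
Normalized count (vertical log axes, each spanning its own range) of the 10 genes in the 3 UE7T-9 Cont libraries (blue) and the 3 UE7T-9 SHC4 libraries (orange), with replicate numbers beside the points and a line at the group mean. FOS, FOSB and EGR1 were high in Cont replicate 2 and SHC4 replicate 3, and the groups of IER3 did not overlap.

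FOS (ENSG00000170345, chromosome 14, 75278774 to 75282230) encodes the founding FOS protein, a transient dimer partner of JUN. Its normalized count was 1292, 4704 and 466 in Cont replicates 1, 2 and 3, against 893, 1642 and 10032 in SHC4 replicates 1, 2 and 3. One library of each group, Cont replicate 2 and SHC4 replicate 3, stood well above the others, and the groups overlapped. The means were 2154 ± 2247 and 4189 ± 5074 (SD, n = 3 each), and the highest library exceeded the lowest 10.1-fold among the controls and 11.2-fold among the SHC4 libraries. The log2 fold change was 0.79 with a 95% interval from -1.33 to 2.92 (adjusted p = 0.749, limma), wide enough to hold a difference of more than 2-fold in either direction. Without SHC4 replicate 3 the estimate was -0.22, and without Cont replicate 3 it was -0.0085.

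FOSB (ENSG00000125740, chromosome 19, 45467995 to 45475179) encodes a second transient FOS protein. It had normalized counts of 110.2, 1925 and 100.3 in the controls and 58.9, 187 and 3264 in the SHC4 libraries. The same pair of libraries was high, and the highest library exceeded the lowest 19.2-fold in the controls and 55.4-fold in the SHC4 libraries, the widest ranges of the 10 genes. limma estimated a log2 fold change of 0.25, with a 95% interval from -3.04 to 3.55 (adjusted p = 0.955). DESeq2 gave FOSB no p-value, and without SHC4 replicate 3 the limma estimate was -1.39. FOSB overlaps ERCC1 on the opposite strand, which had a mean normalized count of 1277. Whether reads were counted by strand is not given in the sources used here, so reads in the overlap are uncertain.

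The FOS-related antigens varied far less. FOSL1 (ENSG00000175592, chromosome 11, 65892049 to 65900573), whose protein pairs with JUN and is known from invasive and growth-stimulated cells, had normalized counts of 2816, 3241 and 3961 in the controls and 3066, 2759 and 2733 in the SHC4 libraries. Its groups overlapped, and Cont replicate 3, the library with the least FOS, had the most FOSL1. The log2 fold change of FOSL1 was -0.22, with a 95% interval from -0.55 to 0.12 (adjusted p = 0.544, limma), so that a change of 2-fold lay outside it. FOSL2 (ENSG00000075426, chromosome 2, 28392448 to 28417312), a FOS protein known from bone and fibroblast biology, had 6229, 5919 and 4439.5 in the controls and 5771, 6276 and 6597 in the SHC4 libraries. Cont replicate 3 was the lowest and the other 5 libraries lay close together. Its log2 fold change was 0.18 with a 95% interval from -0.18 to 0.54 (adjusted p = 0.644, limma). FOSL2 overlaps FLJ31356 on the opposite strand and AC104695.3 on its own, with mean normalized counts of 13.7 and 2.24.

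JUN (ENSG00000177606, chromosome 1, 58780788 to 58784327), the prototype JUN protein and a target of JNK, had normalized counts of 6706, 6921 and 4755 in the controls and 4993, 6592 and 7737 in the SHC4 libraries. The groups overlapped over most of their ranges, and the log2 fold change was 0.069 (95% interval from -0.39 to 0.53, adjusted p = 0.909, limma). JUNB (ENSG00000171223, chromosome 19, 12791496 to 12793315), a JUN protein that can oppose JUN at some targets, had 2940.0, 2039 and 1136 in the controls and 1983, 1886 and 2771 in the SHC4 libraries. Both the highest and the lowest value of JUNB were those of control libraries. The log2 fold change of JUNB was 0.20 (95% interval from -0.49 to 0.89, adjusted p = 0.803, limma). JUNB overlaps HOOK2 on the opposite strand, whose normalized count was at most 479.

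JUND (ENSG00000130522, chromosome 19, 18279760 to 18281622), the most steadily transcribed of the JUN proteins, had normalized counts of 4476, 4036 and 2503 in the controls and 4062, 6068 and 5656 in the SHC4 libraries. SHC4 replicates 2 and 3 lay above all the control libraries, while replicate 1 fell within the range of the controls. The means were 3671 ± 1036 and 5262 ± 1059 (SD, n = 3 each), which gave a log2 fold change of 0.54 with a 95% interval from 0.0097 to 1.07. The adjusted p of JUND was 0.338 in limma, 0.270 in DESeq2 and 0.318 in edgeR, so the difference did not pass. Leaving out any 1 library kept the estimate positive, from 0.29 to 0.72 (adjusted p from 0.108 to 0.698, limma).

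**Figure D2:**
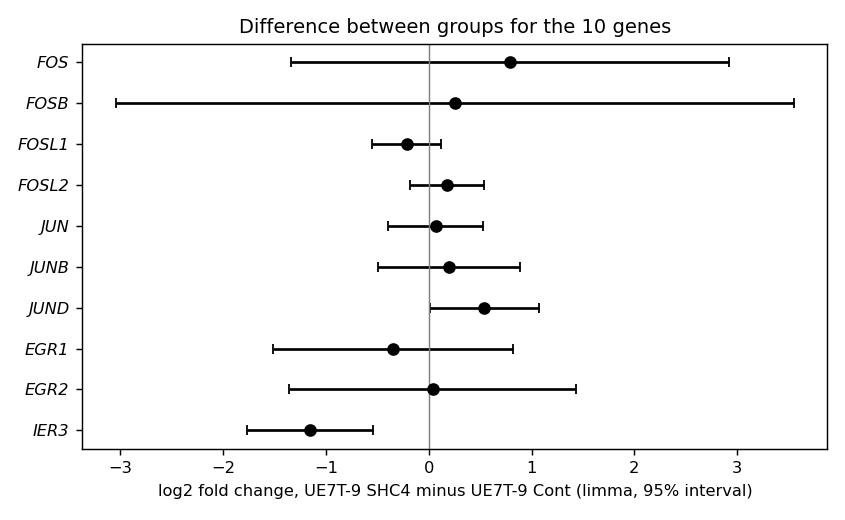
Log2 fold change of the 10 genes (UE7T-9 SHC4 minus UE7T-9 Cont, points) with the 95% interval of the limma fit over 3 libraries per group (bars), and a vertical line at 0. The intervals of FOS, FOSB, EGR1 and EGR2 extend beyond 1 or -1 on at least one side and hold 0, and that of IER3 lies between -1.76 and -0.54.

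EGR1 (ENSG00000120738, chromosome 5, 138465490 to 138469315), a zinc finger factor whose transcription follows ERK activation, had normalized counts of 4370.0, 9752 and 3245 in the controls. It had 2419, 2994 and 9258 in the SHC4 libraries. Cont replicate 2 and SHC4 replicate 3 again carried the high values, with about the same level in both, and the other 4 libraries reached at most 4370.0. The means were 5789 ± 3478 and 4890.1 ± 3793 (SD, n = 3 each). The log2 fold change was -0.35, with a 95% interval from -1.51 to 0.82 (adjusted p = 0.799, limma), and it became 0.11 without Cont replicate 2 and 0.026 without SHC4 replicate 1.

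EGR2 (ENSG00000122877, chromosome 10, 62811996 to 62919900), a related factor known from myelination and T cell biology, was the scarcest of the 10 genes. It had normalized counts of 82.9, 267 and 178 in the controls and 56.2, 246 and 307 in the SHC4 libraries. Replicate 1 was the lowest library in both groups, and the groups overlapped. limma estimated a log2 fold change of 0.039 with a 95% interval from -1.35 to 1.43 (adjusted p = 0.984), and it was -0.42 without Cont replicate 1 or without SHC4 replicate 3 and -0.26 without SHC4 replicate 2.

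IER3 (ENSG00000137331, chromosome 6, 30743199 to 30744554) encodes a small stress and growth factor responsive protein linked to ERK signaling and cell survival. Its normalized count was 1553, 2652 and 1952 in the controls and 845, 647 and 1339 in the SHC4 libraries. Each SHC4 library lay below each control (two-sided exact permutation p = 0.1, the lowest value possible with 3 against 3). The means were 2052 ± 557 and 944 ± 357 (SD, n = 3 each), which gave a log2 fold change of -1.15 (SE 0.27) with a 95% interval from -1.76 to -0.54, or 2.22-fold lower in the SHC4 libraries. IER3 did not pass in limma (unadjusted p = 0.00205, adjusted p = 0.156) or in edgeR (adjusted p = 0.164), but passed in DESeq2 (log2 fold change -1.12, adjusted p = 0.00856). Leaving out each library in turn gave log2 fold changes from -1.44 to -0.91, and the limma adjusted p ranged from 0.0232 without Cont replicate 1 to 0.588 without SHC4 replicate 2. Without Cont replicate 1 limma called 1.47% of 23087 genes lower and 1.59% higher. An antisense gene, IER3-AS1, overlaps IER3 and was not analysed here.

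The 10 genes differed widely in their spread among libraries of a group. The pooled within-group SD of log2(normalized count + 1) was 2.71 for FOSB and 1.74 for FOS, each at percentile 99.9 of genes of similar level (within 0.5 on the log2 scale, 1940 and 2001 genes), whose median SD was 0.21 and 0.16. EGR2 had an SD of 1.11 (percentile 98.7) and EGR1 of 0.94 (percentile 98.9). JUNB and IER3 followed with 0.53 (percentile 96.9) and 0.46 (percentile 95.1), and JUND with 0.38 (percentile 88.2). JUN had an SD of 0.31 (percentile 75.4), while FOSL1 with 0.19 (percentile 56.2) and FOSL2 with 0.20 (percentile 51.5) lay near the middle of genes of similar level. FOSB, FOS, EGR2 and EGR1 thus had the 4 largest spreads of the 10 genes, and FOSL1 and FOSL2 the smallest.

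**Figure D3:**
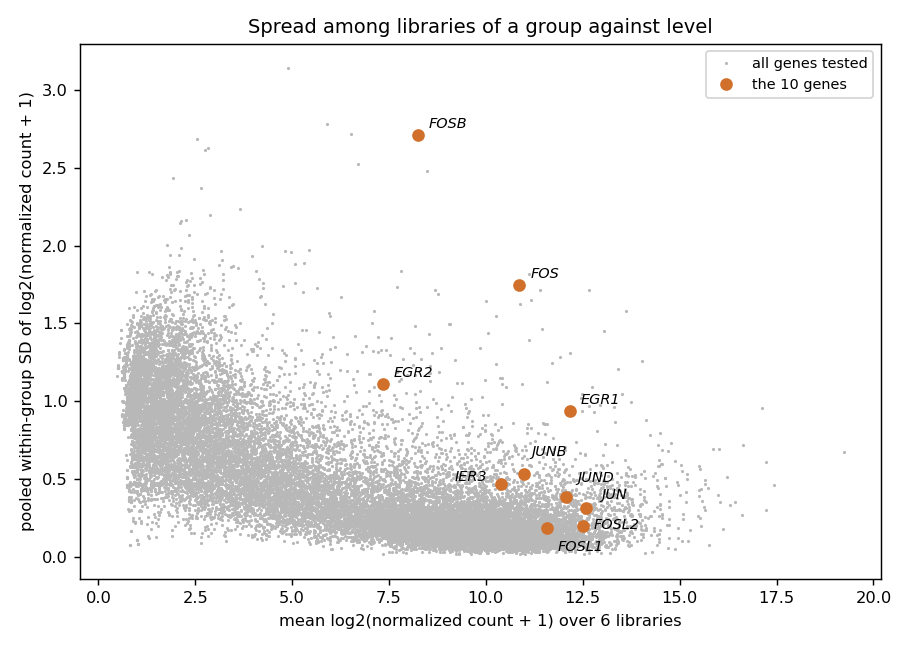
Pooled within-group SD of log2(normalized count + 1) against the mean of log2(normalized count + 1) over 6 libraries, for the 23040 genes tested (grey) and the 10 genes (orange, with names). FOSB (2.71) and FOS (1.74) lie at percentile 99.9 of genes of similar level, EGR2 (1.11) at 98.7 and EGR1 (0.94) at 98.9. FOSL1 (0.19) and FOSL2 (0.20) lie near the middle of such genes.

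The high values fell in the same libraries. Cont replicate 2 was the highest control library and SHC4 replicate 3 the highest SHC4 library for 6 of the 10 genes (FOS, FOSB, JUN, EGR1, EGR2 and IER3), an arrangement noticed after the values were seen. The same held for 12.4% of all genes tested and for 13.9% of those with a mean of at least 50. SHC4 replicate 3 was the highest of all 6 libraries for 5 of the 10 genes, and Cont replicate 3 was the lowest control library for 7 of them. The shares of all genes with these arrangements were not computed, so whether these counts are particular to the 10 genes cannot be told. The pair of libraries with high FOS and EGR1 were also the pair with the fewest reads. Cont replicate 3 had nearly as few reads as SHC4 replicate 3 (20494310 against 20002676) and the lowest FOS of the 6 libraries (466). The part of depth or of handling in these values was not tested. Of 8 heat shock genes, which respond to other stresses, 4 had their highest values in the same pair of libraries, and the median within-group SD of the 8 was 0.13 on the same log2 scale.

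Levels of different genes were compared per kb of exon, with the union of annotated exons as the length. In the controls the order of the mean normalized count per kb was JUND (1971 ± 556, SD, n = 3), EGR1 (1845 ± 1108), FOSL1 (1769.8 ± 307), JUN (1731 ± 337), IER3 (1513 ± 410.5), JUNB (1120.0 ± 496), FOSL2 (773 ± 134), FOS (665 ± 694), FOSB (128 ± 189) and EGR2 (47.7 ± 25.0). No neighbours in this order differed by more than the larger of their SDs. In the SHC4 libraries the order was JUND (2824 ± 569, SD, n = 3), JUN (1819 ± 389), EGR1 (1558 ± 1209), FOSL1 (1512 ± 98.3), FOS (1294 ± 1567), JUNB (1216 ± 267), FOSL2 (868 ± 58.1), IER3 (696 ± 263), FOSB (211 ± 327) and EGR2 (55.1 ± 35.5). There the steps from JUND to JUN, from JUNB to FOSL2 and from IER3 to FOSB exceeded the larger SD. IER3 held rank 5 among the control means and rank 8 among the SHC4 means. The order depended on the length used. With the longest annotated transcript as the length, FOSL1 came first among the controls (2001 ± 347, SD, n = 3), ahead of JUND, and FOS (998 ± 1041) passed FOSL2 (824 ± 143), whose step to FOSB then exceeded the larger SD. In the SHC4 libraries FOS moved from rank 5 to rank 2 (1941 ± 2351, SD, n = 3), FOSL1 passed EGR1, and of the 3 steps named only that from JUNB to FOSL2 still exceeded the larger SD. IER3 kept ranks 5 and 8.

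Within the FOS family the makeup of the transcript pool followed the library. FOS and FOSB together made up 15.1%, 41.4% and 5.62% of the family's normalized count per kb in Cont replicates 1, 2 and 3. In the SHC4 libraries they made up 10.5%, 18.8% and 60.9%. FOSL1 was the most abundant FOS transcript per kb in 5 libraries, with 39.5% to 72.9% of the family, and gave way to FOS in SHC4 replicate 3, where FOSL1 held 23.9% and FOS 51.2%. With the longest transcript as the length FOSL1 led in 4 libraries, since FOS then also led in Cont replicate 2 (39.5% against 35.2% for FOSL1), and the share of FOS and FOSB was 7.40% to 23.8% in those 4 libraries, 48.8% in Cont replicate 2 and 67.8% in SHC4 replicate 3. Within the JUN family JUND held 40.6%, 41.3% and 40.6% per kb in the controls and 46.6%, 52.9% and 45.0% in the SHC4 libraries. The JUND shares of the groups did not overlap, a pattern seen after the values were known and given without a test.

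**Figure D4:**
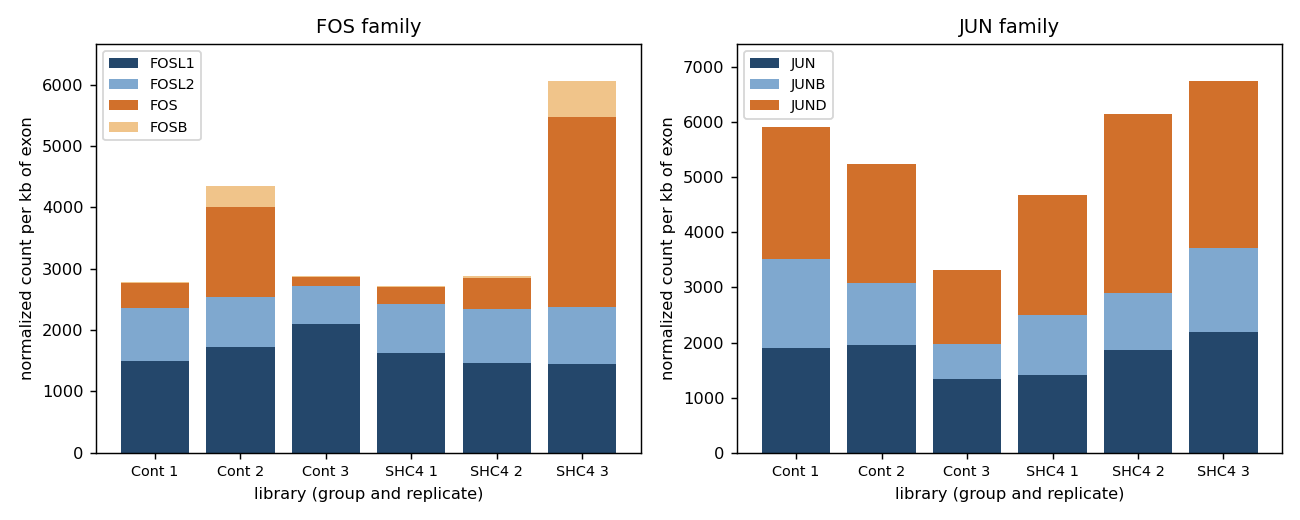
Normalized count per kb of exon of the FOS family (left) and the JUN family (right), stacked by gene, in each of the 6 libraries. FOS and FOSB together make up 41.4% of the FOS family in Cont replicate 2 and 60.9% in SHC4 replicate 3, and 5.62% to 18.8% in the other libraries.

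The genes most like FOS and EGR1 over the 6 libraries were sought among 12668 genes with a mean of at least 50, by the root mean square difference of log2 profiles centred on their own means. HES1, a helix-loop-helix repressor, was closest to both. Its normalized count was 193, 563 and 166 in the controls and 127, 149 and 688 in the SHC4 libraries, high in the same pair of libraries. Its difference from EGR1 was 0.23 where the profile of EGR1 itself deviated by 0.78 from its mean, and its difference from FOS was 0.74 where that of FOS deviated by 1.48. After HES1 came SCG5 (0.28), PDE4B (0.34), NR4A2 (0.34) and KYNU (0.35) for EGR1. For FOS the next were NR4A1 (0.83), SYT12 (0.91), GALNT1 (0.92) and SERTAD4BP (0.93). NR4A1 and NR4A2 are orphan nuclear receptors and immediate early genes themselves. All these genes were picked by their values in the same 6 libraries, so high values in the same pair follow from the choice.

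Among 17 other immediate early genes, limma gave 10 estimates above 0 and 7 below it and called 0. Their median was 0.42 on the log2 scale, against -0.0040 over all genes tested. With a filter of a mean of at least 10, which left 16 of the genes, the median was 0.26. An unadjusted p below 0.05 was reached by 3 of the 17, beside 14.4% of all genes, and DESeq2 also called 0. NR4A3, an orphan nuclear receptor, had normalized counts of 527, 384 and 129.9 in the controls and 454, 882 and 1062 in the SHC4 libraries (log2 fold change 1.34, adjusted p = 0.269, limma), with SHC4 replicate 1 inside the control range. KLF4, a Krüppel-like factor, had 1134, 1659 and 924 in the controls against 1468, 1918 and 2947 (log2 fold change 0.75, adjusted p = 0.270, limma). CCN2, a matricellular protein induced by TGF-beta and mechanical load, had 16169, 18399 and 21931 in the controls against 17298, 11873 and 11569 (log2 fold change -0.49, adjusted p = 0.336, limma). Cont replicate 2 and SHC4 replicate 3 were the highest of their groups for 8 of the 17, beside 12.4% of all genes tested. Without Cont replicate 3 the median of the list was -0.082, so its sign rested on that library. Without Cont replicate 1 limma called 1 of the 17, IER5L (log2 fold change 1.19), beside 1.59% of all genes called higher and 1.47% lower in that fit.

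The proteins that share dimers or promoters with the 10 genes showed no call either. Of 12 AP-1 dimer partners and small MAF factors tested, 6 had estimates above 0 and 6 below, with a median of -0.035. An unadjusted p below 0.05 was reached by 2 of them, beside 14.4% of all genes. ATF7, a partner of JUN, had 527, 418 and 417 in the controls and 555, 651 and 734 in the SHC4 libraries, without overlap (log2 fold change 0.51, adjusted p = 0.213, limma). MAF had a log2 fold change of 0.95 (adjusted p = 0.282, limma) and BATF2 of -1.45 (adjusted p = 0.394, limma), both with overlapping groups. BATF2 was called without Cont replicate 1 (-2.39), beside 1.47% of all genes called lower in that fit. Of 11 promoter factors and EGR corepressors, 5 had estimates above 0 and 6 below, with a median of -0.0050 and 0 with an unadjusted p below 0.05. NAB1 and NAB2, the corepressors of EGR proteins, had log2 fold changes of 0.35 and 0.30, and ATF1 of -0.11 (adjusted p = 0.378, 0.463 and 0.730, limma).

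Of 14 kinases upstream of AP-1 and EGR, 8 had estimates above 0 and 6 below, with a median of 0.046. None was called, and 4 had an unadjusted p below 0.05, beside 14.4% of all genes. The groups did not overlap for 3 of the 14, beside 19.3% of all genes. RPS6KA2, an ERK-activated ribosomal S6 kinase, had normalized counts of 4349.5, 2791 and 1726 in the controls and 5302, 5539 and 5289 in the SHC4 libraries. Its groups did not overlap (log2 fold change 0.96, adjusted p = 0.197, limma). RPS6KA2 was called without Cont replicate 1 (1.29), beside 1.59% of all genes called higher in that fit. The related RPS6KA1 had 642, 632 and 408 in the controls against 407, 334 and 401 (log2 fold change -0.53, adjusted p = 0.269, limma), and MAPK8, which encodes JNK, had 715, 660.4 and 707 in the controls against 572, 491 and 593 (log2 fold change -0.33, adjusted p = 0.288, limma), both lower without overlap.

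Textbook AP-1 target genes were the list with the lowest median. Of 16 tested, 4 had estimates above 0 and 12 below, with a median log2 fold change of -0.78 against -0.0040 over all genes. An unadjusted p below 0.05 was reached by 8, each with SHC4 libraries lower, where 6.96% of all genes did so in that direction. The groups did not overlap for 7 of them, 6 with SHC4 libraries lower and 1, the adhesion receptor CD44, with SHC4 libraries higher, beside 10.2% and 9.13% of all genes in these directions. limma called 0 of the 16, and DESeq2 called 4, each lower in the SHC4 libraries, which were HBEGF, CXCL8, SPP1 and MMP3, beside 1.15% of all genes called lower in DESeq2. The list was fixed with results on some of these genes known, so its direction is no independent evidence.

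HBEGF (ENSG00000113070), a ligand of the EGF receptor, had normalized counts of 277, 839 and 1233 in the controls and 136, 71.6 and 118 in the SHC4 libraries. The log2 fold change was -2.64 (SE 0.48, adjusted p = 0.1 in limma and 1.50e-07 in DESeq2). SPP1 (ENSG00000118785), the bone matrix protein osteopontin, had 1040.1, 10458 and 17769 in the controls and 349.8, 708 and 943 in the SHC4 libraries, a log2 fold change of -3.23 (SE 0.88, adjusted p = 0.187 in limma and 0.00959 in DESeq2). In both genes Cont replicate 1, the library that stood apart from the other controls, was the lowest control and the closest to the SHC4 libraries. PLAUR, the urokinase receptor, had 2081, 3196 and 3416 in the controls against 1585, 1507 and 1782, a log2 fold change of -0.80 (adjusted p = 0.155, limma). CXCL8, a neutrophil chemokine, had 12.7, 191 and 91.5 in the controls against 3.52, 7.49 and 12.8, with Cont replicate 1 inside the range of the SHC4 libraries. MMP3, a stromelysin, had 2.92, 118 and 66.9 in the controls against 8.79, 3.33 and 9.32, with Cont replicate 1 below the SHC4 libraries at a level of 3 reads. Without Cont replicate 1 limma called 5 of the 16 (HBEGF, SPP1, CXCL8, MMP3 and PLAUR), each lower in the SHC4 libraries, beside 1.47% of all genes called lower in that fit. The collagenase MMP1 had 1251, 4939 and 1304 in the controls against 868, 514 and 862, with the high value in Cont replicate 2. MMP10 lay below the filter, and MMP9 was not analysed here.

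**Figure D5:**
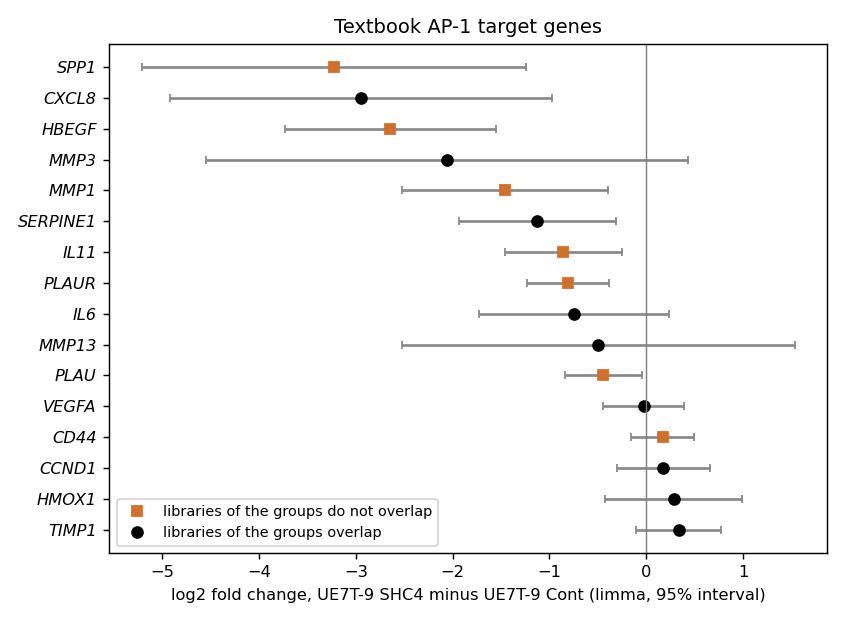
Log2 fold change (UE7T-9 SHC4 minus UE7T-9 Cont) with the 95% interval of the limma fit for 16 textbook AP-1 target genes, ordered by size; orange squares mark genes whose libraries did not overlap between the groups and black circles those whose libraries did. Of the 16 points 12 lie below 0, from SPP1 (-3.23) to VEGFA (-0.027).

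Textbook EGR1 targets and heat shock genes gave no call. Of 9 EGR1 targets 4 had estimates above 0 and 5 below, with a median of -0.0081. The unadjusted p was below 0.05 in limma for 2 of the 9, beside 14.4% of all genes. ICAM1, an adhesion molecule, had a log2 fold change of 0.53, THBS1, a matricellular protein, of 0.89 and F3, tissue factor, of -0.37 (adjusted p = 0.254, 0.274 and 0.499, limma). The groups of THBS1 did not overlap, as for 19.3% of all genes. DESeq2 gave THBS1 a log2 fold change of 0.84 (adjusted p = 0.0178), short of the fold threshold of a call. VEGFA stands in both target lists. Of 8 heat shock genes 3 had estimates above 0 and 5 below, with a median of -0.070. The unadjusted p was below 0.05 in limma for 3 of the 8, beside 14.4% of all genes. For 4 of the 8 the groups did not overlap, 1 with SHC4 libraries higher and 3 lower, beside 19.3% of all genes. HSPH1 had a log2 fold change of -0.36, BAG3 of -0.31 and HSPA1A of 0.30 (adjusted p = 0.292, 0.308 and 0.344, limma). HSPA1A shares nearly its whole sequence with HSPA1B, so its reads are uncertain. Cont replicate 2 and SHC4 replicate 3 were the highest of their groups for 0 of the 9 EGR1 targets, beside 12.4% of all genes tested. With 9 genes, a count of 0 is too near that share to be read as a result about them.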

How the data were processed

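The authors deposited 1 file per library with a signal per Ensembl gene, the normalized count, which is the read count divided by the size factor of the library. The submitters' processing notes name HISAT2 2.0.5, featureCounts 1.5.0-p3 and DESeq2, while the genome build, annotation and strand setting are not given in the sources used here. All values (100%) were whole multiples of 1 read within 0.01 reads, so counts were recovered by division. Libraries were grouped by condition and replicate number in their labels, 3 per group.

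Positions and exon lengths came from GENCODE 29 (GRCh38) by identifier (28181 of 28181 matched) and symbols from a name table (27968 matched). Groups were compared with limma 3.58.1 (eBayes with trend, R 4.3.3) on log2(normalized count + 1) over the 23040 genes whose mean reached 1, leaving out 5141. Fold changes on this scale are understated for low genes. p-values were adjusted by Benjamini-Hochberg over all genes tested, and a call needed an adjusted p below 0.05 together with a difference of more than 1 on the log2 scale. DESeq2 1.42.0 and edgeR 4.0.16 (quasi-likelihood) on the recovered reads, other scalings, filters, a pseudocount of 0.1, a replicate block, leaving out each library and, for levels per kb, the longest transcript in place of the union of exons were the alternatives. The tests were tested on simulated counts.

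The text names all members, SHC4, called list genes, the 3 genes per list with the smallest unadjusted p, and the 5 genes most like FOS and EGR1. HBEGF and SPP1 fall under this rule, while CXCL8, MMP3, MMP1, CD44, VEGFA, IER5L and HSPA1B were named after their values were seen. The members and lists were chosen with earlier results of these data known. No library was a duplicate of another. Intervals and floors cover the spread or counting error of these libraries only.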

Additional observations from a re-analysis of the deposited data

How the results depend on the processing

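Of the 10 genes, the direction held under each alternative run for FOSL1, FOSL2, JUND and IER3. Leaving out 1 library turned the sign of FOS (-0.0085 without UE7T-9 Cont replicate 3 and -0.22 without UE7T-9 SHC4 replicate 3), with a range from -0.22 to 1.66. FOSB ranged from -1.39 (without UE7T-9 SHC4 replicate 3) to 1.65, and was also below 0 without UE7T-9 Cont replicate 1 (-0.41) or replicate 3 (-0.48). JUN ranged from -0.10 (without UE7T-9 Cont replicate 3) to 0.24 and was -0.075 without UE7T-9 SHC4 replicate 3, JUNB from -0.17 (without UE7T-9 Cont replicate 3) to 0.52, EGR1 from -0.94 to 0.11 (without UE7T-9 Cont replicate 2, and 0.026 without UE7T-9 SHC4 replicate 1), and EGR2 from -0.42 (without UE7T-9 Cont replicate 1 or UE7T-9 SHC4 replicate 3) to 0.80, with -0.26 without UE7T-9 SHC4 replicate 2. Library size scaling moved the median of all genes to -0.10 and gave JUN -0.034 and EGR2 -0.064, both above that shift. IER3 passed in DESeq2 (-1.12) and without UE7T-9 Cont replicate 1 (-1.33), within a leave-one-out range from -1.44 to -0.91, so that the number of the 10 genes called lower was 0 or 1.

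Over all genes, calls higher and lower were 12 and 2, and became 31 and 9 with no filter on low values, 20 and 4 with TMM scaling, 170 and 185 in DESeq2, and 1 to 367 and 0 to 339 with 1 library left out (367 and 339 without UE7T-9 Cont replicate 1). The number lower was 1 with a pseudocount of 0.1 and 1 in edgeR. Library size scaling moved the median of all genes from -0.0040 to -0.10. The median of the AP-1 partners moved with it from -0.035 to -0.14, and that of the promoter factors from -0.0050 to -0.11. That of the heat shock genes moved from -0.070 to -0.17. Without a library the median of the other immediate early genes ranged from -0.082 to 0.64, of the promoter factors from -0.034 to 0.066 and of the EGR1 targets from -0.090 to 0.26. List genes called ranged from 0 to 1 for the other immediate early genes, the AP-1 partners and the kinases, and from 0 to 5 for the AP-1 targets, which had 4 in DESeq2. The cause of these moves was not tested.

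Whether replicate numbers pair the libraries was not settled. The correlations of same-numbered deviations were 0.148, 0.0130 and -0.00696 for replicates 1, 2 and 3. Those of differently numbered libraries lay between -0.108 and 0.0992, so only the value of replicate 1 lay above them. The replicate block gave 25 genes higher and 14 lower, called 1 AP-1 target (SPP1) and changed no call among the 10 genes.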
